A study of Mus musculus with 12 samples.

Results

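The 9 renal gluconeogenesis genes followed here, *Pck1*, *Pck2*, *G6pc*, *Fbp1*, *Pcx*, *Ppargc1a*, *Slc37a4*, *Gpt2* and *Glud1*, were chosen by symbol for their known place in glucose synthesis and are 9 of the 55401 gene identifiers measured. They and the gene lists below were chosen with earlier results of these data known. The samples were whole kidneys of 12 male C57BL6 mice aged 8 weeks, 6 given vehicle (15% 2-hydroxypropyl-beta-cyclodextrin) and 6 given SK-124, a selective inhibitor of the salt-inducible kinases SIK2 and SIK3, at 40 mg/kg by intraperitoneal injection. All mice were labelled with that strain alone, and no transgene or deletion was named for either group. The interval between injection and collection of the RNA-Seq kidneys was not given in the sources used here. In whole-kidney RNA, fewer cells of a type and less RNA per cell cannot be told apart.

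Gluconeogenesis makes glucose from lactate, amino acids and glycerol, and the proximal tubule of the kidney is, beside the liver, the main site where it runs to free glucose. In the kidney, glutamine is a major source of carbon, and its nitrogen leaves as ammonium during acid excretion. Salt-inducible kinases phosphorylate the CRTC coactivators of CREB and hold them in the cytoplasm. *Pck1*, *G6pc* and *Ppargc1a* are textbook genes of CREB and CRTC in the fasting liver.

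Before the members' values, some facts of the libraries matter. Expected counts (estimated reads per gene) summed to between 19350134 and 19771802 in vehicle-treated mice and to between 19244227 and 19530313 in SK-124-treated mice. The 10 genes with the most counts took 39.9% to 43.2% of a vehicle library. Their share was 44.4% to 46.8% in the libraries of SK-124-treated mice 1 to 3 and 38.6% to 40.2% in those of SK-124-treated mice 4 to 6. Each of these sets of 3 mice was therefore also compared with all vehicle-treated mice, and the values are printed for some of the members. Summed over 10 proximal tubule marker genes, the level was 8568 to 9546 TMM-normalized CPM (counts relative to the scaled library size) in vehicle-treated mice and 7967 to 9970 in SK-124-treated mice. Of these 10 markers 1 fell (*Slc13a3*), and the other 9, such as *Slc34a1* and *Lrp2*, did not pass the test. The liver genes *Tat* and *Tdo2* did not exceed 0.0511 CPM in any mouse, and *Alb* ranged from 2.75 to 4.19 CPM in vehicle-treated and from 2.28 to 4.65 CPM in SK-124-treated mice. Among 6 tested liver markers 1 rose, *Cyp2e1*, which the kidney expresses as well.

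The upstream sequences of 6 members are shown, those of all the members whose values after SK-124 were higher without overlap in the count data below. The windows are the 250 bases before the RefSeq start site in GRCm38.p6, written 5′ to 3′ on the strand of the gene. Capitals mark the CRE half-site TGACG or its reverse complement CGTCA, the core of a CREB site. *Pck1* stands at chr2:173152823-173153072 on the plus strand, *Fbp1* at chr13:62888283-62888532 on the minus strand, *G6pc* at chr11:101367466-101367715 on the plus strand, *Slc37a4* at chr9:44396696-44396945 on the plus strand, *Glud1* at chr14:34310477-34310726 on the plus strand and *Ppargc1a* at chr5:51567726-51567975 on the minus strand.
Pck1: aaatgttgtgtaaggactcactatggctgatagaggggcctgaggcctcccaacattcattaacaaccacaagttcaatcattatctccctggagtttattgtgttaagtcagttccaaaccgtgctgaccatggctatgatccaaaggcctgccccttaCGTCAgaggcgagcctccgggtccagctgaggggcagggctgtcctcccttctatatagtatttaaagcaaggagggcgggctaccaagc
Fbp1: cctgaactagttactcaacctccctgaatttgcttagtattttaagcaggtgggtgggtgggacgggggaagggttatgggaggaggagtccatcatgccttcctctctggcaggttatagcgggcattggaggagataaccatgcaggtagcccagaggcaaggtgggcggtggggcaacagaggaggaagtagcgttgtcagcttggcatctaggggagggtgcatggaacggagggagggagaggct
G6pc: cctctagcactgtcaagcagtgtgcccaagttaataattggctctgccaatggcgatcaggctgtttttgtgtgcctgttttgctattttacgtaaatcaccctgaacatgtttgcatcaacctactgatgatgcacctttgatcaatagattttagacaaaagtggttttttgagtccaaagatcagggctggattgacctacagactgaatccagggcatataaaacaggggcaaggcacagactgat
Slc37a4: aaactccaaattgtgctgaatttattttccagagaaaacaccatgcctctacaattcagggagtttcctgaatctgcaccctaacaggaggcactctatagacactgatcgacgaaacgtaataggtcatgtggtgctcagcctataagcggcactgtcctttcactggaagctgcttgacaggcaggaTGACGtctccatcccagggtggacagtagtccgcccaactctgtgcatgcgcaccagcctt
Glud1: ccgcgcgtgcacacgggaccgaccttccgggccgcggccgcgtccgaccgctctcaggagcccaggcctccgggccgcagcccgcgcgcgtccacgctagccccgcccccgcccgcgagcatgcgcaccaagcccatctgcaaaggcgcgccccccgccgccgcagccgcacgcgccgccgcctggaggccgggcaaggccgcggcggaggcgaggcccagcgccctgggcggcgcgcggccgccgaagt
Ppargc1a: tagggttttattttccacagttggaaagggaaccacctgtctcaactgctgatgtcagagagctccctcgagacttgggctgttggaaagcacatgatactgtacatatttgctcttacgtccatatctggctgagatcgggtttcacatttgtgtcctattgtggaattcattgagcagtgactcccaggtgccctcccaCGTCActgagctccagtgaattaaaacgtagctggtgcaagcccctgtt

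The half-site began 90 bases before the start of *Pck1*, 61 bases before that of *Slc37a4* and 49 bases before that of *Ppargc1a*. The windows of *Fbp1*, *G6pc* and *Glud1* held none, nor did the windows nearest to the annotated starts of *Pcx*, *Pck2* and *Gpt2*. Only these exact letters were searched for, so a CREB site with other letters would be missed, and its absence from these windows was not tested. Of 32851 RefSeq promoter windows of 300 bases, searched on both strands, 20.81% held the half-site, against 3 of the 9 members. The full CRE TGACGTCA, which contains the half-site, stood in 1.79% of all windows, the FoxO site TGTTTAC in 3.65% and the glucocorticoid response element in 0.475%, and none of these motifs occurred in a member's nearest window.

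SK-124-treated kidneys had higher mRNA of 7 of the 9 genes and lower mRNA of 1 (FDR under 0.05). The increases ran from 1.13-fold for *Fbp1* to 3.63-fold for *G6pc*, *Gpt2* was lower, and *Pck2* did not pass the test. Over all 14159 genes tested, 10.8% were called higher and 13.5% lower. The median log2 fold change was 0.31 over the 9 members and -0.01 over all genes tested. All 6 SK-124-treated mice lay above all 6 vehicle-treated mice for 6 members, against 6.32% of all genes, and below them for 1 member, against 6.65% of all genes. FDR denotes the p of edgeR's quasi-likelihood test after Benjamini-Hochberg adjustment over all genes tested, and the error of a log2 fold change is its standard error (SE).

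**Figure D1:**
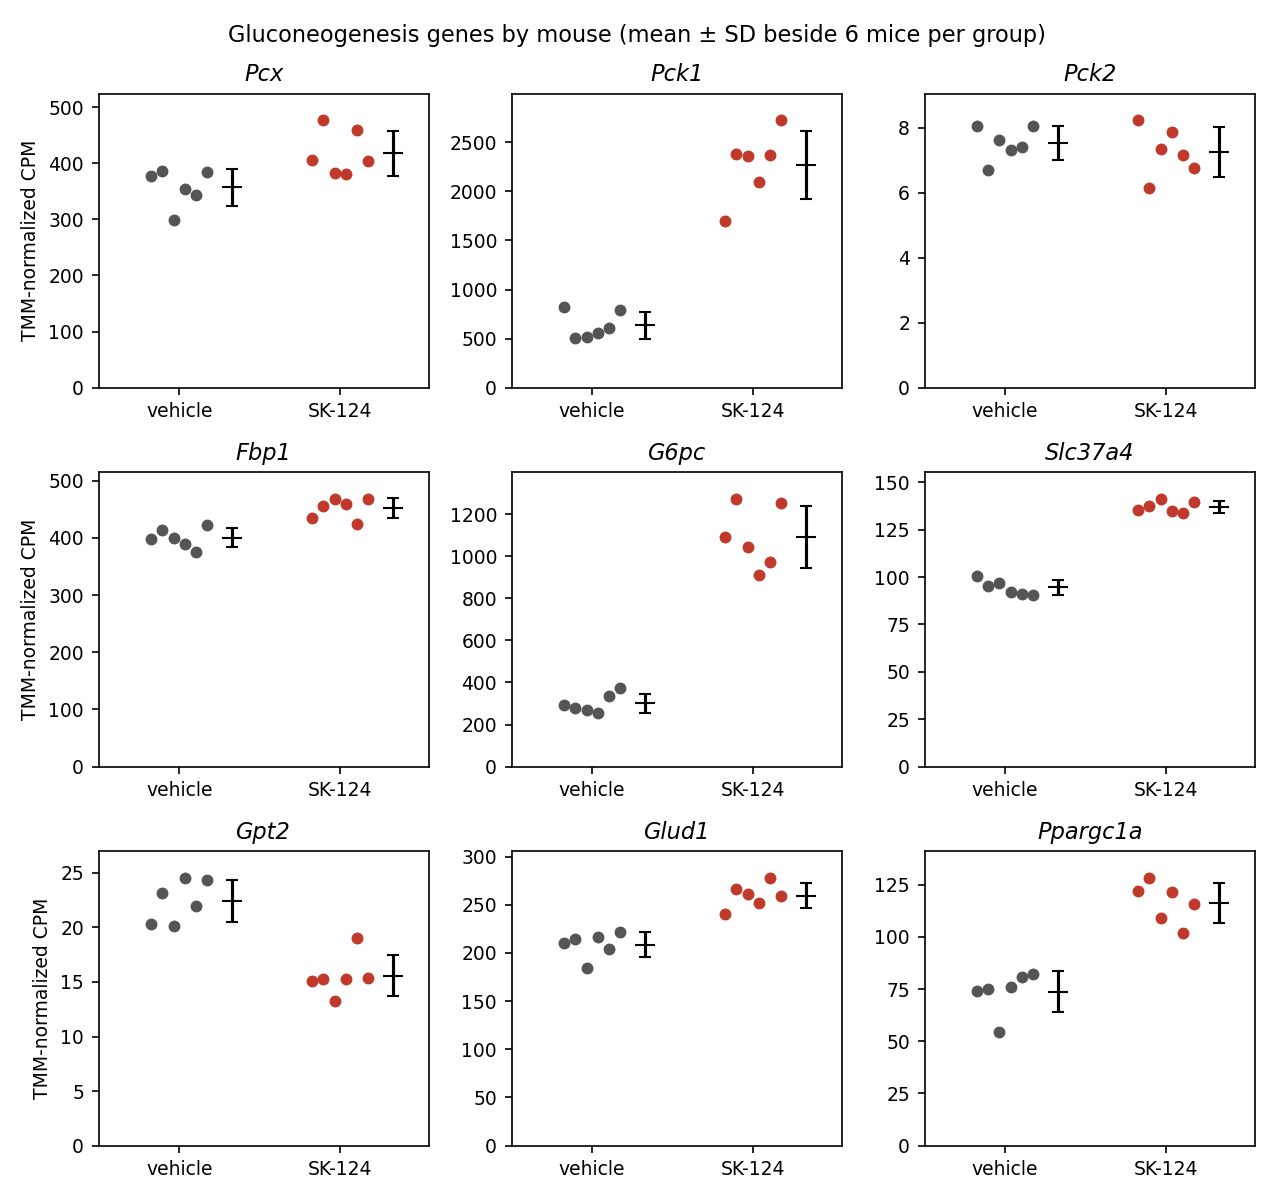
TMM-normalized CPM (y axis, from 0) of each of the 9 genes in the 6 vehicle-treated mice (grey) and the 6 SK-124-treated mice (red). Each point is a mouse, in replicate order, and the black bar beside the points gives mean and SD. *Pck1*, *G6pc*, *Slc37a4*, *Ppargc1a*, *Glud1* and *Fbp1* lie higher without overlap, *Gpt2* lower without overlap, and *Pcx* and *Pck2* overlap.

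The first steps lead from pyruvate to phosphoenolpyruvate. *Pck1* encodes cytosolic phosphoenolpyruvate carboxykinase, which turns oxaloacetate into phosphoenolpyruvate, and lies on chromosome 2 from 173153048 to 173159273 (plus strand, GRCm38, GENCODE M21). Its lowest, median and highest values were 509, 584 and 818 CPM in vehicle-treated mice and 1698, 2362 and 2725 CPM in SK-124-treated mice. The lowest SK-124 value thus stood above the highest vehicle value. Means were 634 ± 138 CPM (SD, n = 6) and 2270 ± 344 CPM (SD, n = 6). This was a log2 fold change of 1.84 (SE 0.13, FDR = 2.15e-08, edgeR's quasi-likelihood test), a 3.58-fold difference with a 95% interval from 2.95 to 4.35. An exact permutation test, two-sided and on log2(CPM + 0.5), gave p = 0.00216, the smallest that 6 against 6 mice allows, and this same value held for every member whose groups did not overlap.

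*Pck2*, on chromosome 14 from 55540266 to 55551242 (plus strand), encodes the mitochondrial form of the same enzyme. It was 6.69 to 8.06 CPM in vehicle-treated mice and 6.14 to 8.22 CPM in SK-124-treated mice, with medians of 7.505 and 7.252 CPM. The vehicle range lay within the SK-124 range. *Pck2* had a log2 fold change of -0.05 (SE 0.08, FDR = 0.695, edgeR), and its 95% interval ran from -0.23 to 0.12. That interval lies below the rise of *Pck1*, whose own interval ran from 1.56 to 2.12. *Pck2* overlaps the antisense-strand gene *Gm10876*, and the sources used here do not give the strand setting of the counting.

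*Pcx* encodes pyruvate carboxylase, which makes oxaloacetate in the mitochondrion, and lies on chromosome 19 from 4510472 to 4621752 (plus strand), overlapping *Lrfn4* on the other strand. In order, its lowest, median and highest values were 299, 365 and 386 CPM with vehicle and 381, 405 and 476 CPM with SK-124. The groups met at their edge, since 2 SK-124-treated mice (381 and 382 CPM) stood below the highest vehicle-treated mice. *Pcx* rose by a log2 fold change of 0.23 (SE 0.07, FDR = 0.0319, edgeR). The call was lost without vehicle-treated mouse 4 (FDR = 0.0623) or 5 (0.0642), and without SK-124-treated mouse 2 (0.0744) or 5 (0.0715), in the same edgeR test. It was also lost with either set of 3 SK-124-treated mice.

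Further along the route, *Fbp1* encodes fructose-1,6-bisphosphatase, which removes a phosphate that glycolysis adds through phosphofructokinase. It lies on chromosome 13 from 62864753 to 62888282 (minus strand). Vehicle-treated and SK-124-treated mice came close: the lowest, median and highest values were 375, 399 and 423 CPM with vehicle and 425, 457 and 467 CPM with SK-124, without overlap. *Fbp1* rose by a log2 fold change of 0.18 (SE 0.05, FDR = 0.0140, edgeR). With SK-124-treated mice 1 to 3 alone the value was the same to 2 decimals (0.18, FDR = 0.0615), as it was with mice 4 to 6 alone (0.18, FDR = 0.0655), and neither passed edgeR's test with 3 mice in the group.

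*G6pc* encodes the catalytic subunit of glucose-6-phosphatase, which releases free glucose in the endoplasmic reticulum, and lies on chromosome 11 from 101367561 to 101377903 (plus strand). Its lowest, median and highest values were 257, 286 and 372 CPM with vehicle and 913, 1067 and 1270 CPM with SK-124. Every SK-124-treated mouse stood well above the vehicle range. The log2 fold change was 1.86 (SE 0.10, FDR = 6.75e-10, edgeR), a 3.63-fold difference with a 95% interval from 3.12 to 4.21.

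*Slc37a4* encodes the transporter that brings glucose 6-phosphate to that enzyme, and it lies on chromosome 9 from 44396852 to 44402968 (plus strand) with *Mir7085* within it. The lowest, median and highest values of *Slc37a4* were 90.5, 93.9 and 100.5 CPM with vehicle and 133.7, 136.5 and 141.1 CPM with SK-124. The mice of each group lay close together, and the groups were far apart. The log2 fold change was 0.54 (SE 0.04, FDR = 1.17e-07, edgeR), a 1.45-fold difference. The transporter and the phosphatase thus both rose, and the 95% interval of the log2 fold change, 0.44 to 0.63 for *Slc37a4*, lay below that of *G6pc*, 1.64 to 2.07.

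Amino acid carbon enters through *Glud1* and *Gpt2*. *Glud1*, on chromosome 14 from 34310727 to 34345265 (plus strand), encodes glutamate dehydrogenase, which turns glutamate into 2-oxoglutarate and ammonium. Its lowest, median and highest values were 185, 212 and 222 CPM with vehicle and 240, 260 and 278 CPM with SK-124, without overlap. The log2 fold change was 0.31 (SE 0.05, FDR = 3.39e-04, edgeR), a 1.24-fold difference. It was 0.30 with SK-124-treated mice 1 to 3 and 0.34 with mice 4 to 6.

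*Gpt2*, on chromosome 8 from 85492576 to 85527560 (plus strand), encodes the mitochondrial alanine aminotransferase, which interconverts alanine and pyruvate. It was the one member that fell. Its lowest, median and highest values were 20.1, 22.6 and 24.5 CPM with vehicle and 13.3, 15.3 and 19.04 CPM with SK-124. All SK-124-treated mice were below all vehicle-treated mice, and mouse 5, at 19.04 CPM, was the nearest to them. Its log2 fold change was -0.52 (SE 0.08, FDR = 1.12e-04, edgeR), a fold of 0.695. It was -0.62 with SK-124-treated mice 1 to 3 and -0.43 with mice 4 to 6.

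The coactivator *Ppargc1a* (PGC-1α), which drives gluconeogenic and mitochondrial genes, lies on chromosome 5 from 51454250 to 51567726 (minus strand) and overlaps 4 predicted genes, of which *Gm42613* is on the other strand. For this gene the lowest, median and highest values were 54.5, 75.4 and 82.3 CPM with vehicle and 102, 118 and 128 CPM with SK-124. The groups did not overlap, and vehicle-treated mouse 3 was apart at the low end of its group. The log2 fold change was 0.66 (SE 0.09, FDR = 2.07e-05, edgeR), a 1.58-fold difference. Without vehicle-treated mouse 3 it was 0.58, and FDR stayed at most 9.73e-05 whichever mouse was left out.

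The small rises depended on how libraries were scaled. With library totals in place of TMM the median of all genes moved to a log2 fold change of -0.12, and with the authors' TPM values on the log2(TPM + 1) and log2(TPM + 0.1) scales in limma it moved to -0.11 and -0.14. Under library totals *Pcx* was at 0.11, *Fbp1* at 0.06 and *Glud1* at 0.20, and none of these passed edgeR's test (FDR = 0.373, 0.539 and 0.0560). Relative to the median of all genes, these values were 0.23 for *Pcx*, 0.18 for *Fbp1* and 0.32 for *Glud1*. On the log2(TPM + 1) scale the corresponding values relative to the median were 0.19, 0.13 and 0.27, and the calls were lost as well. *Pck1*, *G6pc*, *Slc37a4* and *Ppargc1a* remained higher and *Gpt2* lower in each of the 22 alternatives, with log2 fold changes of 1.70 to 1.93, 1.70 to 1.93, 0.38 to 0.55, 0.49 to 0.70 and -0.69 to -0.43.

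**Figure D2:**
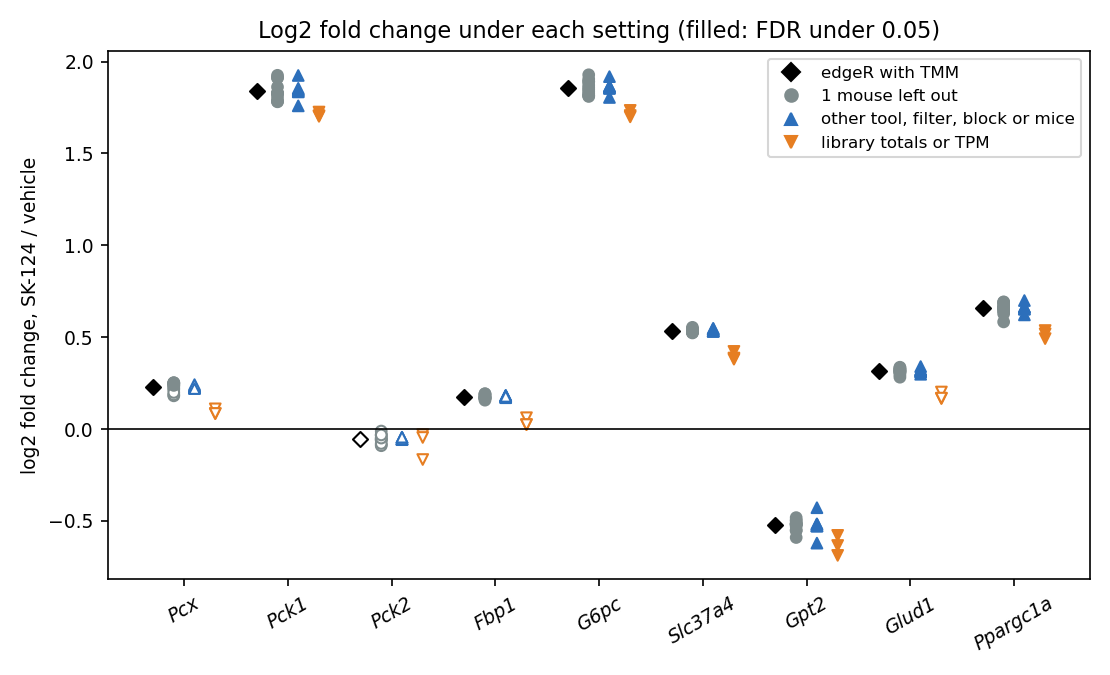
Log2 fold change of SK-124 over vehicle (y axis) of each of the 9 genes under edgeR with TMM (diamonds), with 1 mouse left out (circles), with another tool, filter, block or subset of mice (blue triangles) and with library totals or TPM (orange triangles). Filled symbols have an FDR under 0.05. *Pcx*, *Fbp1* and *Glud1* lose their calls with library totals or TPM, and *Pck1*, *G6pc*, *Slc37a4*, *Ppargc1a* and *Gpt2* keep theirs in every setting shown.

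Levels were compared between genes on the authors' TPM scale, which accounts for gene length. In vehicle-treated kidneys *Fbp1* (291 ± 22.9 TPM, SD, n = 6) and *Pck1* (242 ± 62.2 TPM) led, and their ranges over mice overlapped. *G6pc* followed at 126 ± 26.4 TPM, then *Pcx* at 87.3 ± 12.2, *Glud1* at 60.8 ± 6.58 and *Slc37a4* at 46.9 ± 2.61 TPM. In that run *Pcx* overlapped *Glud1*, and *Glud1* overlapped *Slc37a4*. *Ppargc1a* (15.4 ± 2.997 TPM), *Gpt2* (6.23 ± 0.870 TPM) and *Pck2* (2.33 ± 0.250 TPM) came last, each apart from the next.

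With SK-124 the order at the top changed. *Pck1* was first at 785 ± 173 TPM (SD, n = 6), with every mouse above the highest *G6pc* value, and *G6pc* was second at 409 ± 59.5 TPM. *Fbp1* followed at 296 ± 33.2 TPM, below the lowest *G6pc* value in every mouse. *Pcx*, *Glud1* and *Slc37a4* kept their places at 92.5, 68.5 and 61.5 TPM with overlap between neighbours, and *Ppargc1a* (21.9 TPM), *Gpt2* (3.87 TPM) and *Pck2* (2.28 TPM) again came last.

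**Figure D3:**
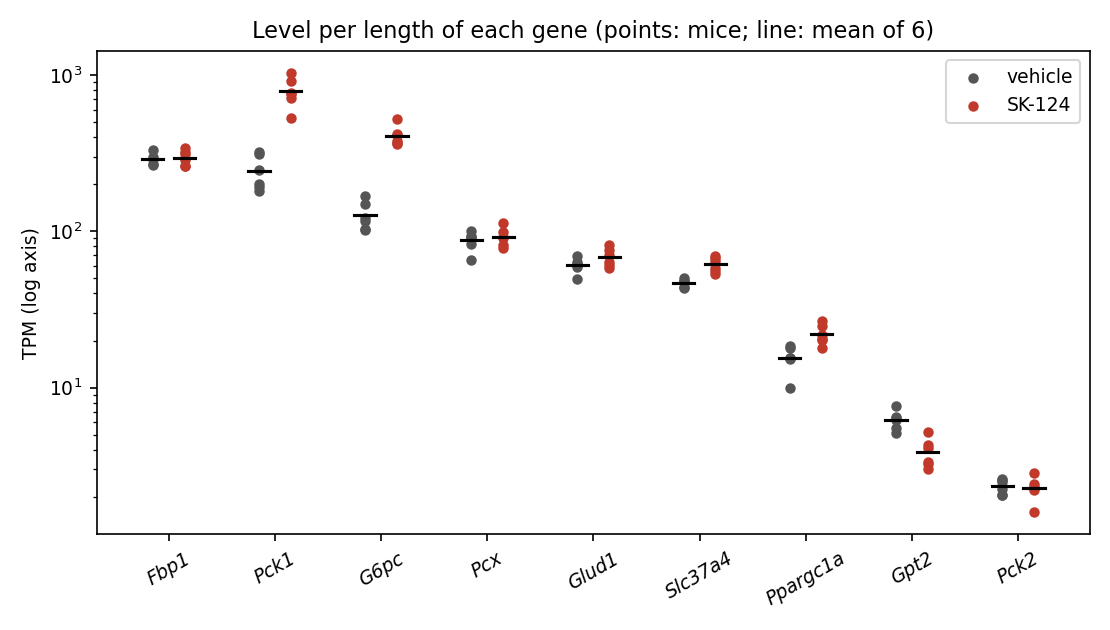
Level of each of the 9 genes in TPM (log y axis) in each of 6 vehicle-treated (grey) and 6 SK-124-treated (red) mice, with a line at the mean, in the order of the vehicle means. *Pck1* and *G6pc* pass *Fbp1* after SK-124, and *Gpt2* and *Pck2* stay at the bottom in both groups.

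For members with a second gene for the same reaction, the share of the pair's TPM was computed in each mouse. *Pck1* made up 99.0% ± 0.154 (SD, n = 6) of *Pck1* plus *Pck2* with vehicle and 99.7% ± 0.0857 with SK-124. *G6pc* made up 79.0% ± 3.21 of *G6pc* plus *G6pc3*, the broadly expressed phosphatase, with vehicle and 92.9% ± 1.01 with SK-124, and these ranges did not overlap (74.6% to 83.1% and 91.5% to 94.1%). *G6pc3* itself was at 32.8 ± 1.56 TPM with vehicle and 31.0 ± 3.53 TPM with SK-124. *Fbp1* made up 98.4% and 98.7% of *Fbp1* plus *Fbp2*.

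*Gpt2* went from 59.2% ± 5.05 (SD, n = 6) of *Gpt2* plus *Gpt*, the cytosolic alanine aminotransferase, to 43.7% ± 6.87. The ranges overlapped (51.7% to 64.8% and 33.6% to 54.3%). *Gpt* was at 4.28 ± 0.631 TPM with vehicle and 4.98 ± 0.973 TPM with SK-124. These shares are a ratio within a library, so a difference in them shows unequal change and not which gene moved.

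Of the 20 other enzymes of the route listed, 19 were tested, 3 rose, none fell and 16 did not pass the test, with a median log2 fold change of 0.11. Beside this and the list counts that follow stand the shares over all 14159 genes tested, 10.8% higher and 13.5% lower. *Got1*, the cytosolic aspartate aminotransferase, rose by a log2 fold change of 0.95 (SE 0.08, FDR = 1.33e-07, edgeR), from 46.3 to 51.3 CPM with vehicle to 81.8 to 115 CPM with SK-124, and its groups did not overlap. *Gpt* (0.40, FDR = 0.0388) and *Mdh2*, the mitochondrial malate dehydrogenase (0.17, FDR = 0.0284), also passed edgeR's test, with overlapping groups, and each lost its call in 12 of 22 alternatives. The reversible steps between phosphoenolpyruvate and fructose 1,6-bisphosphate (*Eno1*, *Pgam1*, *Pgam2*, *Pgk1*, *Gapdh*, *Tpi1* and the 3 aldolase genes) all had an FDR of 0.05 or more.

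**Figure D4:**
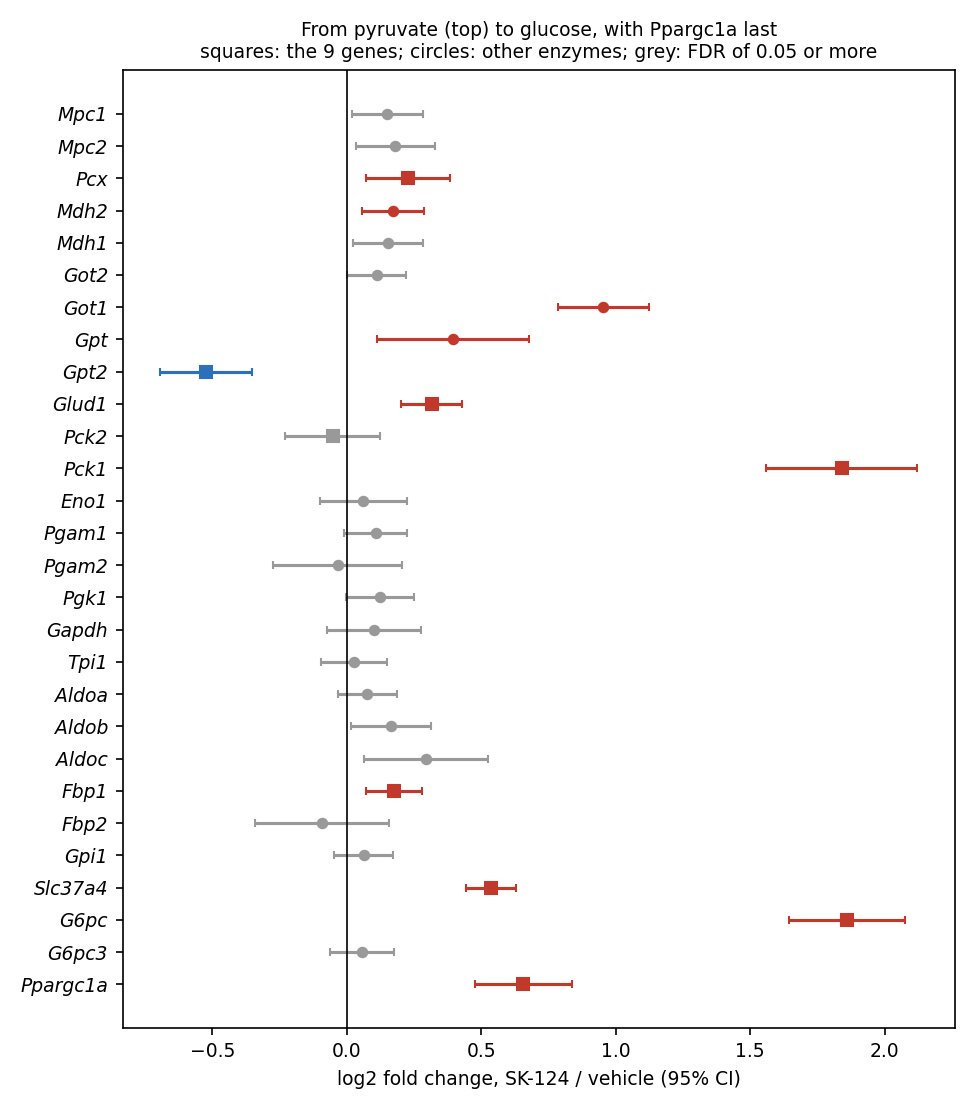
Log2 fold change of SK-124 over vehicle with its 95% confidence interval (x axis) for the 9 genes (squares) and 19 other tested enzymes and carriers of the route (circles), ordered from pyruvate at the top to glucose, with *Ppargc1a* last. Red marks genes called higher, blue lower and grey an FDR of 0.05 or more. *Pck1* and *G6pc* lie near 1.8 to 1.9, *Got1* near 0.95, and the steps between *Pck1* and *Fbp1* are grey.

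Of 15 genes for the entry of lactate, glutamine, glycerol and fructose, 5 rose and 1 fell. *Glul* rose most, from 216 to 271 CPM with vehicle to 648 to 870 CPM with SK-124 (log2 fold change 1.60, SE 0.08, FDR = 3.55e-10, edgeR). It encodes glutamine synthetase, which makes glutamine from glutamate and so works in the opposite direction to the entry of glutamine carbon. *Slc38a3*, a glutamine transporter named after its value was seen, rose by a log2 fold change of 0.39 (FDR = 0.00705), with overlap. Of the glycerol genes, *Gk* (glycerol kinase) rose by 0.34 (FDR = 0.00115) and *Gpd2* (mitochondrial glycerol-3-phosphate dehydrogenase, also named after its value was seen) by 0.35 (FDR = 6.47e-04), and *Gpd1*, the cytosolic form, fell by 0.21 on the log2 scale (FDR = 0.0179), all by edgeR. *Slc38a3*, *Gk* and *Gpd2* lost their calls on both TPM scales in limma. *Gpd1* lost its call with SK-124-treated mice 1 to 3 alone (-0.12, FDR = 0.247, edgeR).

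In the list of glycolytic enzymes and pyruvate dehydrogenase control, 17 of 20 genes were tested, 5 rose and 4 fell. *Pdk4*, a kinase that inhibits pyruvate dehydrogenase and so spares pyruvate, rose from 11.7 to 26.1 CPM with vehicle to 53.5 to 138 CPM with SK-124, and the groups did not overlap (log2 fold change 2.41, SE 0.22, FDR = 4.15e-07, edgeR). *Pdp2*, a phosphatase that reactivates the complex, fell by 0.44 on the log2 scale (FDR = 7.24e-04), and *Hk1*, a hexokinase, fell by 0.40 (FDR = 7.46e-05), both without overlap. The related kinases differed in direction: *Pdk2* (0.32, FDR = 2.50e-04) and *Pdk3* (0.16, FDR = 0.0485) rose, and *Pdk1* fell (-0.21, FDR = 0.00754), by edgeR. *Pdha1*, which encodes a subunit of the complex itself, rose by 0.15 (FDR = 0.0456, edgeR). For *Pdk3* and *Pdha1* the groups overlapped, and neither gene was refitted under the alternatives. Mean TPM of *Pdk3* was 18.1 with vehicle and 18.2 with SK-124, and that of *Pdha1* was 78.2 in both groups. *Pfkp*, the platelet-type phosphofructokinase and so an enzyme of the opposite direction to *Fbp1*, rose by 0.37 (FDR = 0.00104) with overlap. It lost its call with library totals and on both TPM scales. Its relatives did not rise: *Pfkm* fell (-0.19, FDR = 0.0234) with overlap, and *Pfkl* did not pass edgeR's test (-0.01, FDR = 0.927). The 3 genes not tested did not pass the expression filter.

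All 21 listed upstream regulators were tested, and 11 rose and 4 fell. Among transcription factors, *Cebpb* rose by a log2 fold change of 2.02 (SE 0.13, FDR = 7.31e-09) and *Foxo3* by 1.60 (SE 0.08, FDR = 1.41e-10), and *Cebpa*, a relative of *Cebpb*, fell by 1.05 (SE 0.09, FDR = 1.55e-07), all by edgeR and all without overlap between the groups. *Ppargc1b*, the relative of *Ppargc1a*, was 7.20 to 8.30 CPM with vehicle and 3.95 to 5.32 CPM with SK-124 (log2 fold change -0.84, SE 0.09, FDR = 1.82e-06). These 2 related coactivators therefore moved in opposite directions. Others were named after their values were seen, with FDR values from edgeR. *Klf15*, a factor for amino acid breakdown and gluconeogenesis, rose by 1.46 (FDR = 1.82e-11). *Irs2*, an insulin receptor substrate, rose by 0.81 (FDR = 3.59e-05). Its relative *Irs1* rose by 0.55 (FDR = 1.53e-04) and *Insr*, the insulin receptor, by 0.37 (FDR = 5.33e-04). *Foxo1* rose by 0.36 (FDR = 5.01e-04), and its call was lost on both TPM scales in limma. *Nr3c1*, the glucocorticoid receptor, fell by 0.62 on the log2 scale (FDR = 2.98e-05). *Esrra* fell as well (-0.49, FDR = 1.12e-05), without overlap. *Creb1*, *Crtc1*, *Crtc2*, *Crtc3*, *Hnf4a* and *Stk11* did not pass the test at the mRNA level.

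**Figure D5:**
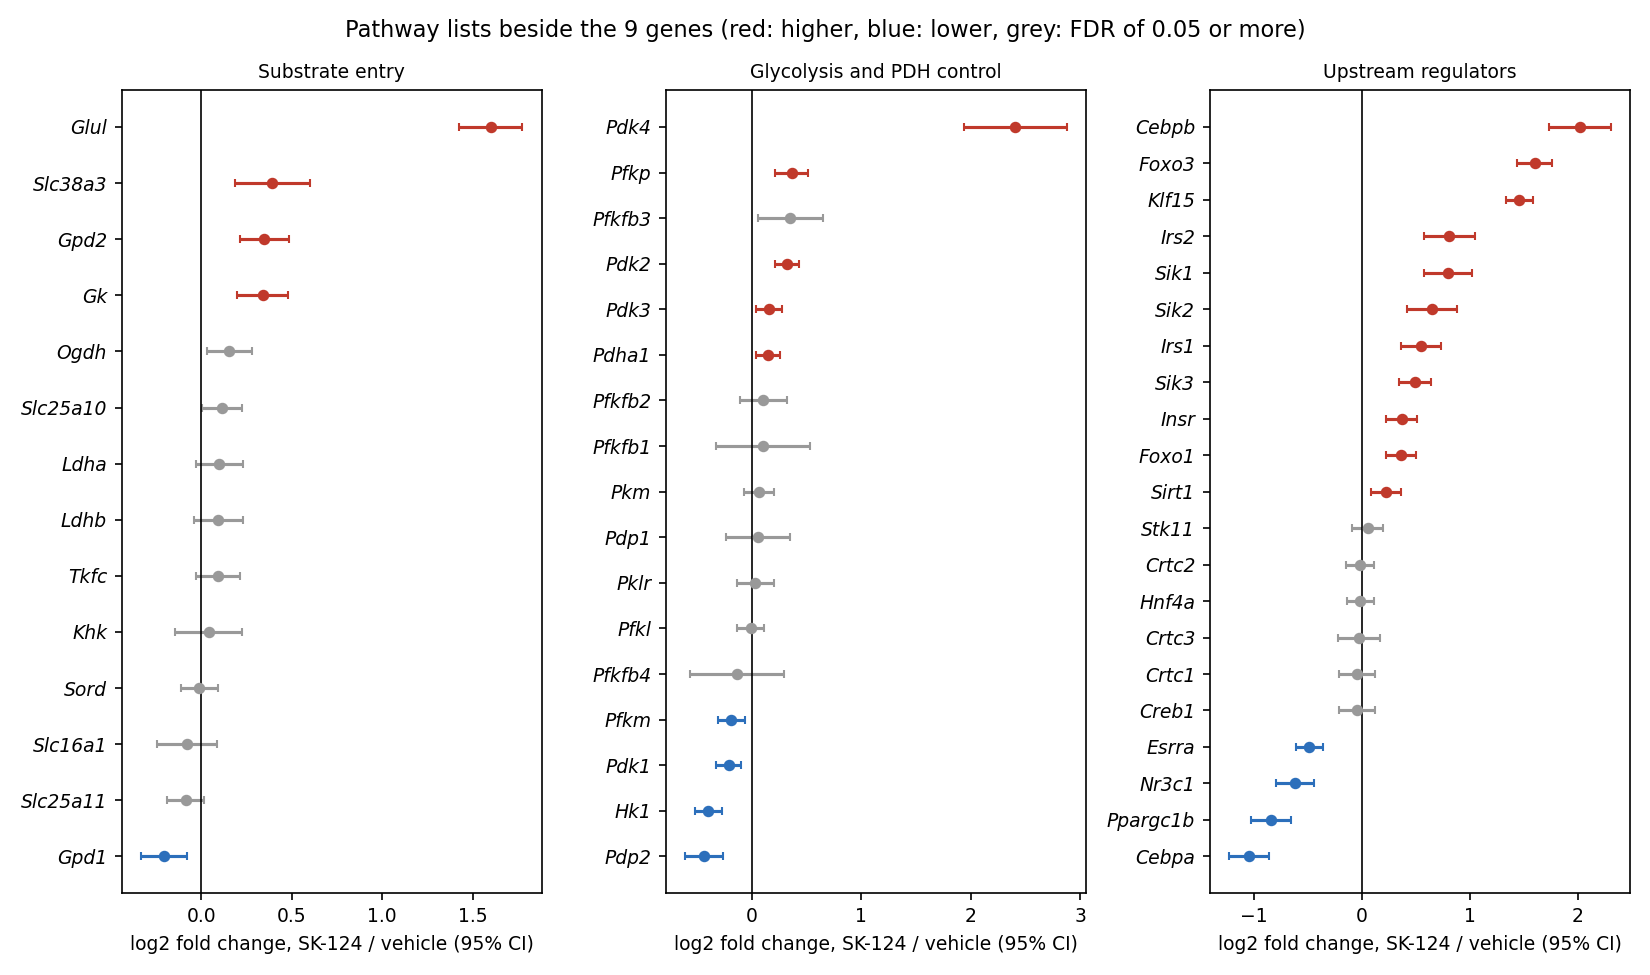
Log2 fold change of SK-124 over vehicle with its 95% confidence interval (x axis, a separate scale in each panel) for 14 genes of substrate entry, 17 tested genes of glycolysis and pyruvate dehydrogenase (PDH) control and 21 upstream regulators, sorted by value. Red marks genes called higher, blue lower and grey an FDR of 0.05 or more. *Glul*, *Pdk4*, *Cebpb*, *Foxo3* and *Klf15* stand to the right, and *Cebpa* and *Ppargc1b* to the left.

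Other textbook targets of CREB and CRTC, listed apart from gluconeogenesis, rose in 10 of 11 cases. The median log2 fold change of the list was 2.18. The exception, *Fos*, did not pass the test (log2 fold change 0.13, SE 0.78, FDR = 0.925, edgeR). Its lowest, median and highest values were 0.496, 0.726 and 27.1 CPM with vehicle. With SK-124 they were 2.43, 4.81 and 12.1 CPM, so the mean of the vehicle group rests on its highest value. *Nr4a3* and *Atf3* had the largest fold changes of the list, from at most 0.284 and 0.593 CPM in any vehicle-treated mouse to 3.61 to 8.86 and 1.95 to 16.4 CPM (log2 fold change 5.20 and 4.09, SE 0.32 and 0.54, FDR = 3.26e-09 and 2.47e-05, edgeR). Because the vehicle values are a few counts, these sizes depend on the scale, and on log2(TPM + 1) they were 1.28 and 1.61. *Pde4d* (0.95, FDR = 4.67e-06) and *Pde4b* (0.38, FDR = 0.0140), phosphodiesterases that break down cyclic AMP, had the smallest rises called by edgeR. *Pck1* and *G6pc*, at 1.84 and 1.86, stood below the median of this list, and *Ppargc1a*, at 0.66, stood between *Pde4b* and *Pde4d*. Over all 5 lists outside the members, 34 of 83 tested genes were higher and 9 lower, with a median log2 fold change of 0.13. Among all genes tested, 10.8% were called higher and 13.5% lower.

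The genes whose values over the 12 mice were most like those of a member were found by the root mean square difference of log2(CPM + 0.5) after subtraction of each gene's vehicle mean, among the 12999 genes that averaged 1 CPM or more. This is a description over mice that share the treatment difference. For *Pck1* these were *Sesn2* (0.21), *Flvcr1* (0.23) and *Fam129a* (0.25), and for *G6pc* they were *Sesn2* (0.11), *Flvcr1* (0.14) and *Pappa* (0.20). *Pck1* and *G6pc* differed from each other by 0.22 on this measure. For *Ppargc1a* the nearest were *Jmjd1c* (0.07), *Etnk1* (0.10) and *Sik2* (0.11). *Sik2*, which encodes a target of SK-124, was 12.1 to 21.5 CPM with vehicle and 24.8 to 32.6 CPM with SK-124 (log2 fold change 0.65, SE 0.11, FDR = 2.99e-04, edgeR). This rise was not particular to *Sik2*. *Sik3*, which encodes the other target, rose by 0.49 (FDR = 6.90e-05) and *Sik1* by 0.80 (FDR = 2.86e-05), both by edgeR and without overlap. Among the members, *Pcx* and *Glud1* were the most alike (0.10), and *Pck1* and *Gpt2* the least (1.70).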

How the data were processed

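RNA was taken from whole kidneys of 12 mice, 1 library per mouse, and sequenced on the BGISEQ500 platform. For each mouse the authors deposited a gene table with RSEM expected counts, which are not normalized, and with TPM and FPKM values that RSEM scaled to gene length and library total. The submitters' processing notes name FastQC, STAR 2.7.2b, RSEM 1.3.0, DESeq2 and the build mm10. Reads shared by several genes are divided by RSEM, and the members' expected counts were whole (within 0.005) in all 12 mice except *Glud1*, whole in 11. The FPKM values were not used.

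Expected counts were rounded, scaled with TMM, filtered with filterByExpr (14159 genes left) and compared by the quasi-likelihood test of edgeR over all genes with Benjamini-Hochberg adjustment. A gene was called at an FDR under 0.05. Two-sided exact permutation tests used log2(CPM + 0.5). The labels do not say more than that the libraries are separate samples, and between libraries of a group chi-square per degree of freedom was at least 4.69 over 30 pairs, so none was counted as a duplicate. The mean biological coefficient of variation was 0.101. Depth limits mainly the low genes: *Pck2* had 105 to 170 counts and *Gpt2* 237 to 513 per mouse, and other members over 1000. Coordinates are from GENCODE M21 (GRCm38) and start sites and promoters from RefSeq GRCm38.p6. Of the gene identifiers 54349 of 55401 matched GENCODE M21 with their version.

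The members, gene lists and tests were chosen with earlier results of these data known. All 9 members are named. From each pathway list the 2 largest and the 2 smallest log2 fold changes among called genes are named, and for *Pck1*, *G6pc* and *Ppargc1a* the 3 nearest patterns. Other genes were named after their values were seen. Some genes of the lists are counted but not otherwise reported here, 1 of them within this rule. The alternatives tried were DESeq2 1.42.0, RLE normalization, library totals, no filter, at least 10 counts in every mouse, limma 3.58.1 on log2(TPM + 1) and log2(TPM + 0.1), the replicate number as a block, each mouse left out, and SK-124-treated mice 1 to 3 or 4 to 6 alone. The fit was tested on simulated data. Versions were R 4.3.3, edgeR 4.0.16, Python 3.11.15, pandas 2.3.3 and matplotlib 3.10.9.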

Additional observations from a re-analysis of the deposited data

Results flagged for a closer look

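In 4 cases a single mouse stood apart from the other 5 of its group by Dixon's 95% criterion, among 56 groups examined. Chance flags about 1 in 20 groups, here 2.8. *Gpt2* was at 19.04 CPM in SK-124-treated mouse 5, where the next highest mouse had 15.4 CPM. *Ppargc1a* was at 54.5 CPM in vehicle-treated mouse 3, where the next lowest had 74.2 CPM. *Pdk4* was at 26.1 CPM in vehicle-treated mouse 1, where the next highest had 16.4 CPM. *Atf3* was at 0.101 CPM in vehicle-treated mouse 4, where the next lowest had 0.427 CPM.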

How the results depend on the processing

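The number of members called higher was 7, and it was 4 with library totals, with limma on log2(TPM + 1) and with limma on log2(TPM + 0.1), where *Pcx*, *Fbp1* and *Glud1* lost their calls and the median of all genes had shifted by over 0.1. It was 6 to 7 when 1 mouse was left out and 5 with only mice 1 to 3, or only mice 4 to 6, of the SK-124 group, which leave fewer samples. The number of members called lower was 1 in every alternative. Of the pathway genes outside the members 34 were higher, against 20 on log2(TPM + 1) and 19 on log2(TPM + 0.1), and 30 to 38 with 1 mouse left out. The number lower was 9, and 8 to 9 with 1 mouse left out. Over all genes 44.5% of calls were higher, against 20.3% with library totals (777 higher and 3058 lower), 19.01% on log2(TPM + 1) and 19.04% on log2(TPM + 0.1). None of the 41 genes refitted under the alternatives, the members among them, changed sign. With the replicate block, 7 members were higher and 1 lower, 36 pathway genes were higher and 9 lower, and 3466 genes in all were called, against 3453. The replicate numbers belong to different mice, and correlations of same-numbered mice ran from -0.13 to 0.22, with 2 of 6 SK-124-treated mice correlating best with their own number, so they were not taken as pairs. Depth limits *Pck2* most, with 105 to 170 counts per mouse.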
